A study of Mus musculus with 12 samples.

Results

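The chemokine ligand genes described here were Ccl2, Ccl3, Ccl4, Ccl6, Ccl7, Ccl9, Ccl22, Cxcl1, Cxcl2 and Cxcl16, a list of 10 CC and CXC genes that cells of the myeloid lineage can make. They were chosen by name and matched to the Ensembl identifiers of the deposited annotation, and all 10 were found among the 41388 genes of each table. A total of 8 passed the filter on low counts and were tested, and Ccl22 and Cxcl1 were too low. Of the 41388 genes, 13030 passed that filter.

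Chemokines are small secreted proteins that bind G protein-coupled receptors and direct the movement of leukocytes. CC ligands have adjacent cysteines near the amino terminus, and CXC ligands have 1 residue between them. In mice, Ccl2 and Ccl7 act on Ccr2, the receptor that brings monocytes out of the bone marrow. Ccl3 and Ccl4 attract macrophages and T cells, and Ccl3 acts on Ccr1. Ccl6 and Ccl9 are rodent ligands of Ccr1, Cxcl1 and Cxcl2 attract neutrophils through Cxcr2, Cxcl16 is a membrane-bound ligand of Cxcr6, and Ccl22 binds Ccr4. Osteoclasts, the cells that resorb bone, form from the macrophage lineage under M-CSF and RANKL, and chemokines of this family are known to act on their precursors.

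Poly(A) RNA of cultured bone marrow cells from C57BL/6 mice was sequenced in 12 libraries, 3 in each of 4 groups. Cells came either from ASXL2flox mice, labelled Flox and with no Cre named, or from ASXL2LysM mice, labelled LysM Cre positive and KO, in which Cre is driven by the LysM (Lyz2) locus of myeloid cells. All cells spent 5 days in culture and 2 further days after replating with 2% MCSF. The groups called flox_BMM and KO_BMM, bone marrow macrophages, received MCSF alone, and those called flox_OC and KO_OC, osteoclasts, also received RANKL at 50 ng/ml. No group carried the Cre with an intact Asxl2, so effects of the Cre or of its insertion at Lyz2 cannot be told apart from loss of Asxl2. The labels do not give the floxed exons, the age or sex of the mice, or whether replicates were separate mice or cultures. The p-values therefore describe variation among these libraries only, and it may be technical.

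Assigned reads ranged from 18489873 to 21667237 per library, and a count of 0 allowed a level of up to 0.138 to 0.162 CPM, the counts scaled by library size to a common total, by counting error alone. Asxl2 lay between 89.8 and 95.6 CPM in flox_BMM, between 14.9 and 15.4 in KO_BMM, between 71.1 and 75.6 in flox_OC and between 12.7 and 15.1 in KO_OC. All 10 macrophage markers were at 1 CPM or more in every group, and their summed level was 33250 to 34270 CPM in flox_BMM, 29240 to 30020 in KO_BMM, 15820 to 16240 in flox_OC and 16830 to 17080 in KO_OC. The larger part of each sum was Lyz2, the locus that drives the Cre. Its means were 21810 CPM in flox_BMM, 19570 in KO_BMM, 10630 in flox_OC and 11670 in KO_OC. The 10 osteoclast markers summed to 234 to 243 CPM in flox_BMM, 206 to 210 in KO_BMM, 744 to 765 in flox_OC and 380 to 397 in KO_OC, and Calcr, which encodes the calcitonin receptor, was at 0 in every group but flox_OC. Marker sums over all libraries were 1.93 to 4.95 CPM for T and NK cells, 7.68 to 27.6 for B cells, 16.9 to 45.1 for endothelial cells and at most 0.0988 for mast cells and basophils. In these bulk samples, fewer cells of a type and less RNA per cell cannot be told apart. Values below are TMM-scaled CPM, listed in the order of replicates 1, 2 and 3, and fold changes were tested with edgeR's quasi-likelihood test, with p-values adjusted by Benjamini-Hochberg over the 13030 genes and a threshold of 0.05.

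**Figure D1:**
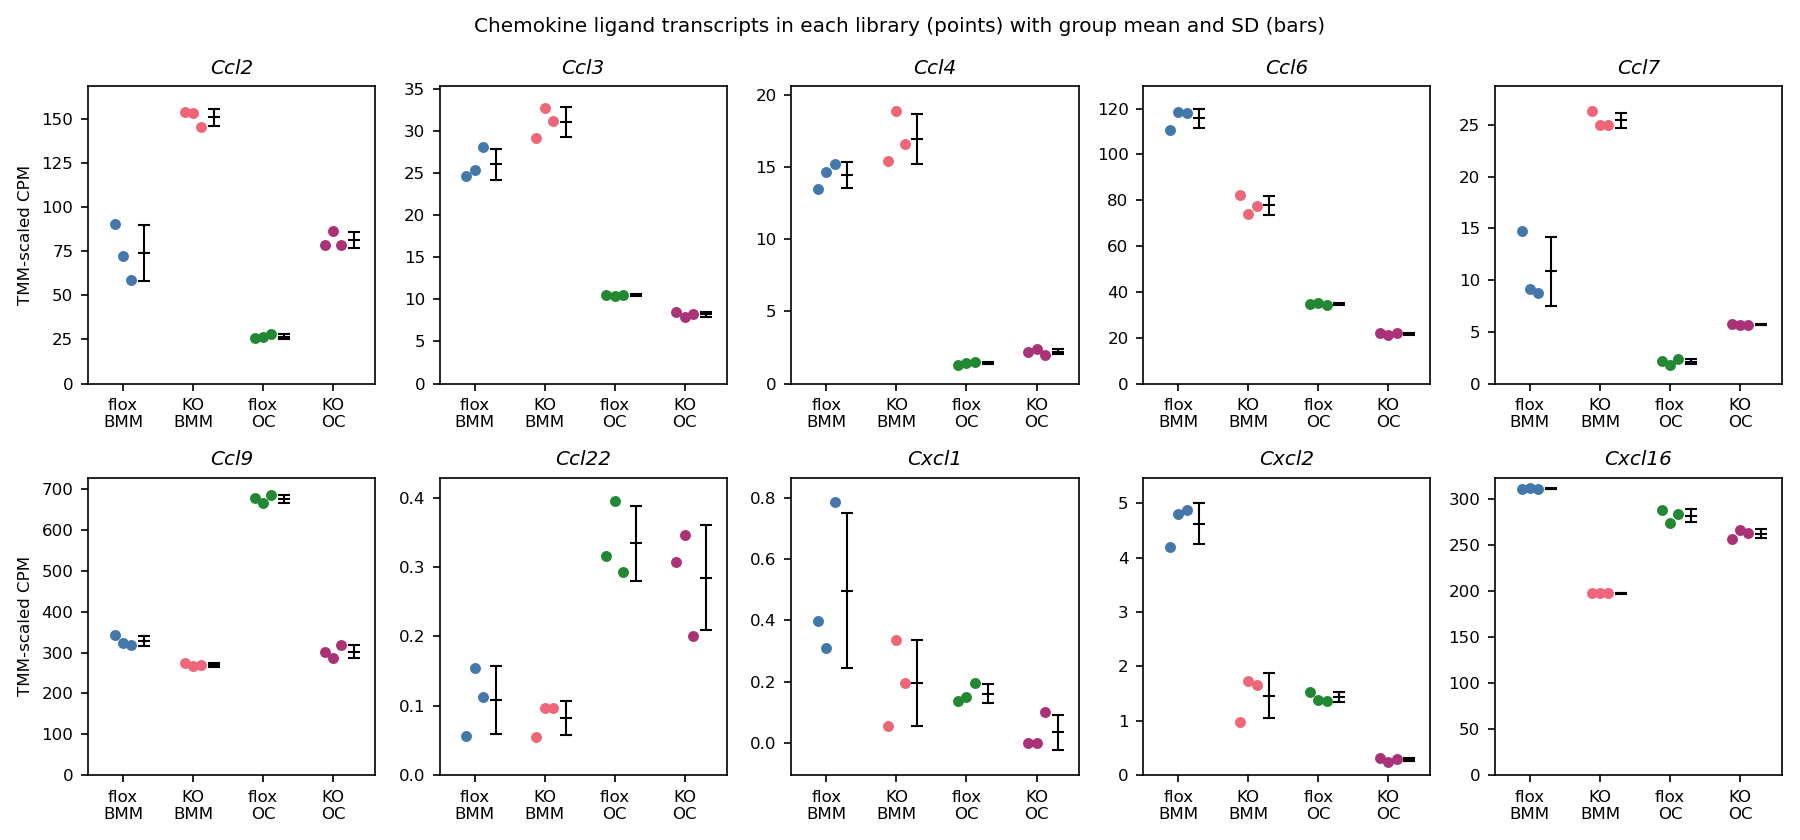
Each panel gives the TMM-scaled CPM (y axis, linear) of 1 gene in the 12 libraries, with the 4 groups on the x axis, points for libraries and bars for the group mean and SD of 3 libraries. Ccl2 and Ccl7 were higher in KO than in flox libraries under both media, Cxcl2 and Ccl6 were lower, and Ccl9 rose with RANKL to between 666 and 685 CPM in flox_OC.

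Ccl2 and Ccl7 were higher in KO than in flox cells under both media and fell with RANKL in both genotypes. The genes are neighbours on chromosome 11, 8258 bases apart (GRCm38, Ccl2 at chr11:82035571-82037453 and Ccl7 at chr11:82045712-82047525, both on the plus strand). Ccl2, the main monocyte attractant, was at 90.5, 72.6 and 58.8 CPM in flox_BMM and at 154, 153 and 145 CPM in KO_BMM. Under RANKL it was at 25.6, 26.2 and 28.0 CPM in flox_OC and at 78.5, 86.7 and 78.8 CPM in KO_OC. Every KO library lay above every flox library of the same medium, and the flox_BMM libraries differed most among themselves. Ccl2 was 2.04-fold higher in KO_BMM (1.03 on the log2 scale, SE 0.12, edgeR adjusted p = 1.1e-04). It was 3.06-fold higher in KO_OC (1.61, SE 0.15, edgeR adjusted p = 2.08e-05).

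Ccl7, which shares the receptor Ccr2, was at 14.7, 9.12 and 8.76 CPM in flox_BMM and at 26.3, 25.0 and 25.0 CPM in KO_BMM. Its RANKL libraries were at 2.21, 1.83 and 2.34 CPM in flox_OC and at 5.74, 5.69 and 5.67 CPM in KO_OC. As for Ccl2, the genotypes did not overlap under either medium, and replicate 1 of flox_BMM was the highest of its group for both genes. Ccl7 was 2.35-fold higher in KO_BMM (1.23 in log2, SE 0.12, edgeR adjusted p = 4.23e-07) and 2.67-fold higher in KO_OC (1.42, SE 0.23, edgeR adjusted p = 1.16e-04). With RANKL, Ccl2 fell 2.78-fold in flox cells (-1.47, SE 0.15, edgeR adjusted p = 1.5e-05) and 1.86-fold in KO cells (-0.89, SE 0.12, edgeR adjusted p = 9.82e-05). Ccl7 fell 5.06-fold in flox cells (-2.34, SE 0.20, edgeR adjusted p = 2.21e-08) and 4.45-fold in KO cells (edgeR adjusted p = 4.01e-10).

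The RANKL effects of this pair were not shown to differ between genotypes. For Ccl2 the KO effect minus the flox effect was 0.58 on the log2 scale (SE 0.19, edgeR adjusted p = 0.0676). That difference passed the threshold without replicate 1 of flox_BMM (0.40, edgeR adjusted p = 0.0147), without replicate 3 of flox_BMM (0.71, edgeR adjusted p = 0.00238) and with DESeq2 (0.58, DESeq2 adjusted p = 0.0184). For Ccl7 it was 0.18 (SE 0.27, edgeR adjusted p = 0.699).

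Ccl3 and Ccl4 fell with RANKL in both genotypes and moved less with genotype. These genes lie 13228 bases apart on chromosome 11, Ccl3 at chr11:83647844-83649355 on the minus strand and Ccl4 at chr11:83662584-83664683 on the plus strand. Ccl3 was at 24.7, 25.4 and 28.1 CPM in flox_BMM and at 29.2, 32.8 and 31.3 CPM in KO_BMM. With RANKL it was at 10.6, 10.4 and 10.6 CPM in flox_OC and at 8.56, 7.97 and 8.23 CPM in KO_OC. The KO libraries were thus the higher ones with MCSF alone and the lower ones with RANKL, with no overlap under either medium. Ccl3 was higher in KO_BMM by 0.26 (SE 0.06, edgeR adjusted p = 2.61e-04) and lower in KO_OC by a log2 fold change of -0.35 (SE 0.09, edgeR adjusted p = 0.00116). It fell with RANKL 2.48-fold in flox cells (-1.31, SE 0.07, edgeR adjusted p = 3.93e-22) and 3.77-fold in KO cells (-1.92, SE 0.07, edgeR adjusted p = 2.39e-28). The difference of the RANKL effects passed the test (-0.61, SE 0.11, edgeR adjusted p = 1.46e-05).

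Ccl4 was at 13.45, 14.6 and 15.2 CPM in flox_BMM and at 15.4, 18.8 and 16.6 CPM in KO_BMM. With RANKL it was at 1.31, 1.43 and 1.46 CPM in flox_OC and at 2.20, 2.38 and 2.01 CPM in KO_OC. The genotypes did not overlap, but the gap in BMM was small, and RANKL separated the libraries far more than genotype did. Ccl4 fell 10.3-fold with RANKL in flox cells (-3.36, SE 0.13, edgeR adjusted p = 4.69e-28) and 7.72-fold in KO cells (-2.95, SE 0.11, edgeR adjusted p = 6.1e-28). Of the 8 tested genes it had the largest fall with RANKL in each genotype. It was higher in KO_OC by 0.65 (SE 0.20, edgeR adjusted p = 0.00663) and in KO_BMM by 0.23 (SE 0.08, edgeR adjusted p = 0.0112). The BMM difference did not pass without replicate 2 of KO_BMM (0.15, edgeR adjusted p = 0.167) or with DESeq2 (0.23, DESeq2 adjusted p = 0.0855). The RANKL effects on Ccl4 differed by 0.41 (SE 0.21, edgeR adjusted p = 0.17).

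Ccl9 and Ccl6 were both lower in KO than in flox cells, whereas RANKL moved them in opposite directions. They are neighbouring ligands of Ccr1, 9245 bases apart on the minus strand of chromosome 11 (Ccl9 at chr11:83572919-83578636 and Ccl6 at chr11:83587882-83593087). Ccl9 was the one tested CC gene of the list that rose with RANKL, and its promoter is shown beside that of Ccl6 because the pair diverged. Both run from 100 to 21 bases before the RefSeq start, 5′ to 3′ on the gene's strand (RefSeq, GRCm38.p6; chr11:83578657-83578736 and chr11:83593108-83593187), with motif matches in capitals:
Ccl9: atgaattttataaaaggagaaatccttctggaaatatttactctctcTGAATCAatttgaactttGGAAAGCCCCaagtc
Ccl6: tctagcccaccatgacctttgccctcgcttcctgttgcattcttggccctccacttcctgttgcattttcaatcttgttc
The capitals in Ccl9 mark an AP-1 motif, TGANTCA, from 53 to 47 bases before the start, and an NF-kB motif, GGG and TTCC with any 3 bases between them, read on the opposite strand from 35 to 26 bases before it. In windows of 250 bases before to 50 after the start, TGANTCA was found on either strand in 7.81% of the 32851 mouse promoters in the table and the NF-kB motif in 5.56%. A match is a description of letters and no evidence of binding.

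Ccl9, a chemokine that mouse osteoclasts are known to make, was at 342, 323 and 319 CPM in flox_BMM and at 274, 266 and 269 CPM in KO_BMM. RANKL libraries were at 679, 665.5 and 685 CPM in flox_OC and at 302, 287 and 319 CPM in KO_OC. The flox_OC libraries stood far above the other 9, and the KO_OC libraries reached no higher than those of flox_BMM. RANKL raised Ccl9 2.06-fold in flox cells (1.04 in log2, SE 0.03, edgeR adjusted p = 1.44e-31) and 1.12-fold in KO cells (0.17, SE 0.03, edgeR adjusted p = 1.05e-05). The RANKL effect was smaller in KO cells by a difference of -0.88 (SE 0.04, edgeR adjusted p = 3.24e-20). Ccl9 was 1.22-fold lower in KO_BMM (-0.28, SE 0.03, edgeR adjusted p = 3.62e-10) and 2.24-fold lower in KO_OC (-1.16, SE 0.03, edgeR adjusted p = 9.9e-32). The summed osteoclast markers were also lower in KO_OC than in flox_OC, with 7 of their 8 tested genes called lower, against 19.9% of all tested genes. The part of this marker difference in the Ccl9 level was not tested.

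Ccl6 was at 111, 118 and 118 CPM in flox_BMM and at 82.1, 73.9 and 77.4 CPM in KO_BMM. With RANKL it was at 34.8, 35.1 and 34.2 CPM in flox_OC and at 22.04, 21.3 and 21.8 CPM in KO_OC. The 4 groups were fully separate and ranked flox_BMM, KO_BMM, flox_OC, KO_OC. Ccl6 was 1.49-fold lower in KO_BMM (-0.58, SE 0.04, edgeR adjusted p = 8.08e-18) and 1.60-fold lower in KO_OC (-0.68, SE 0.05, edgeR adjusted p = 1.25e-14). RANKL lowered Ccl6 3.33-fold in flox cells (-1.74, SE 0.04, edgeR adjusted p = 3.06e-36) and 3.58-fold in KO cells (-1.84, SE 0.05, edgeR adjusted p = 1.35e-34), and the difference of -0.10 did not pass (SE 0.07, edgeR adjusted p = 0.314).

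Cxcl2 was lower in KO than in flox cells and fell with RANKL, and its partner Cxcl1 was near the limit of counting. The genes lie 10783 bases apart on the plus strand of chromosome 5 (Cxcl1 at chr5:90891241-90893115 and Cxcl2 at chr5:90903899-90905909). Their promoters are shown because both genes were highest in flox_BMM, over the same window as above (RefSeq, GRCm38.p6; chr5:90891145-90891224 and chr5:90903799-90903878), with matches to the NF-kB motif on either strand in capitals:
Cxcl1: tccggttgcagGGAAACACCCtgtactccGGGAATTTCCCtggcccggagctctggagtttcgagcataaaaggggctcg
Cxcl2: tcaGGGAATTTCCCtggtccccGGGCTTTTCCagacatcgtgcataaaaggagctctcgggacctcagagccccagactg
The stretch GGGAATTTCCC stands in both and matches the motif on each strand with overlap, and each promoter has 1 further match. Of the 6 listed genes found in the promoter table, Ccl3, Ccl6, Ccl9, Ccl22, Cxcl1 and Cxcl2, the NF-kB motif was found in Ccl9, Cxcl1 and Cxcl2, and TGANTCA in Ccl9. The PU.1 motif GAGGAAG was found in Cxcl2, after the start, and in 13.6% of all promoters of the table.

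Cxcl2, a ligand that attracts neutrophils, was at 4.20, 4.79 and 4.88 CPM in flox_BMM and at 0.978, 1.73 and 1.65 CPM in KO_BMM. With RANKL it was at 1.535, 1.38 and 1.365 CPM in flox_OC and at 0.308, 0.248 and 0.301 CPM in KO_OC, where the libraries held 6, 5 and 6 reads. The gene passed the filter through the other groups, and its lowest group rests on few reads. Cxcl2 was 3.14-fold lower in KO_BMM (-1.65, SE 0.17, edgeR adjusted p = 2.01e-11) and 4.93-fold lower in KO_OC (-2.30, SE 0.32, edgeR adjusted p = 5.57e-08). RANKL lowered it 3.23-fold in flox cells (-1.69, SE 0.17, edgeR adjusted p = 1.37e-12) and 5.07-fold in KO cells (-2.34, SE 0.32, edgeR adjusted p = 1.05e-08). The RANKL effects differed by -0.65 (SE 0.39, edgeR adjusted p = 0.259). Neutrophil markers moved the same way with genotype: their summed level was 79.0 to 83.3 CPM in flox_BMM, 26.2 to 28.6 in KO_BMM, 34.7 to 36.8 in flox_OC and 10.6 to 12.4 in KO_OC. Of their 5 tested genes 4 were called lower in KO cells under each medium. The share of all tested genes called lower was 20.6% in BMM and 19.9% in OC. Ly6g was at 0 in every library, Elane was at 0 in both KO groups, and Mpo was at 0 in KO_OC. The part of these cells in the Cxcl2 result was not tested.

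Cxcl1 held 7, 6 and 14 reads in flox_BMM, 1, 7 and 4 in KO_BMM, 3, 3 and 4 in flox_OC and 0, 0 and 2 in KO_OC. The libraries of the KO_BMM and flox_BMM groups overlapped. From the summed reads, the ratio of KO to flox was 0.408 in BMM, with an exact 95% interval of 0.188 to 0.832 that covers counting error only. With RANKL that ratio was 0.211, with an interval of 0.0225 to 0.99. With no filter on low counts, over 23565 genes, Cxcl1 did not pass in either genotype comparison (edgeR adjusted p = 0.0557 in BMM and 0.114 in OC) and was lower with RANKL in flox cells (edgeR adjusted p = 0.00578) and in KO cells (edgeR adjusted p = 0.0217).

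Cxcl16 was lower in KO than in flox cells, by more under MCSF alone than with RANKL. The gene, at chr11:70453983-70459984 on the minus strand, encodes a chemokine that is anchored in the membrane and also binds oxidised lipoprotein. It was at 311, 312 and 311 CPM in flox_BMM and at 197, 197.5 and 198 CPM in KO_BMM. Under RANKL its levels were 288, 274 and 284 CPM in flox_OC and at 256, 266 and 263 CPM in KO_OC. KO_BMM stood apart from the other 3 groups, which lay closer together without overlap. Cxcl16 was 1.57-fold lower in KO_BMM (-0.65, SE 0.03, edgeR adjusted p = 1.93e-24) and 1.08-fold lower in KO_OC (-0.11, SE 0.03, edgeR adjusted p = 0.00168). With RANKL it rose 1.33-fold in KO cells (0.41, SE 0.03, edgeR adjusted p = 1.33e-17). In flox cells its RANKL effect was -0.14 (SE 0.03, edgeR adjusted p = 1.11e-05), which turned to 0.03 and did not pass with scaling to library size alone (edgeR adjusted p = 0.378). The RANKL effects differed by 0.55 (SE 0.04, edgeR adjusted p = 2.72e-15). Counting ignored strand, and 552 bases of Cxcl16 exons, 18.3% of their length, overlap Zmynd15, whose means were 33.5, 21.55, 29.9 and 36.7 CPM in flox_BMM, KO_BMM, flox_OC and KO_OC, so reads of that stretch cannot be told apart.

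Ccl22, a ligand of Ccr4 that dendritic cells and macrophages can make, lies on chromosome 8 (chr8:94745590-94751699). It held 1, 3 and 2 reads in flox_BMM, 1, 2 and 2 in KO_BMM, 7, 8 and 6 in flox_OC and 6, 7 and 4 in KO_OC. Every RANKL library held more reads than every library with MCSF alone. The summed ratio of RANKL to MCSF alone was 3.05 in flox cells, with an exact 95% interval of 1.19 to 9.24, and 3.41 in KO cells, with an interval of 1.21 to 11.8. With no filter on low counts it passed in both RANKL comparisons (edgeR adjusted p = 0.0367 in flox cells and 0.0382 in KO cells) and in neither genotype comparison (edgeR adjusted p = 0.887 and 0.858). Markers of dendritic cells summed to 8.68 to 11.3 CPM in flox_BMM, 4.41 to 5.73 in KO_BMM, 9.07 to 12.3 in flox_OC and 5.52 to 6.56 in KO_OC.

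**Figure D2:**
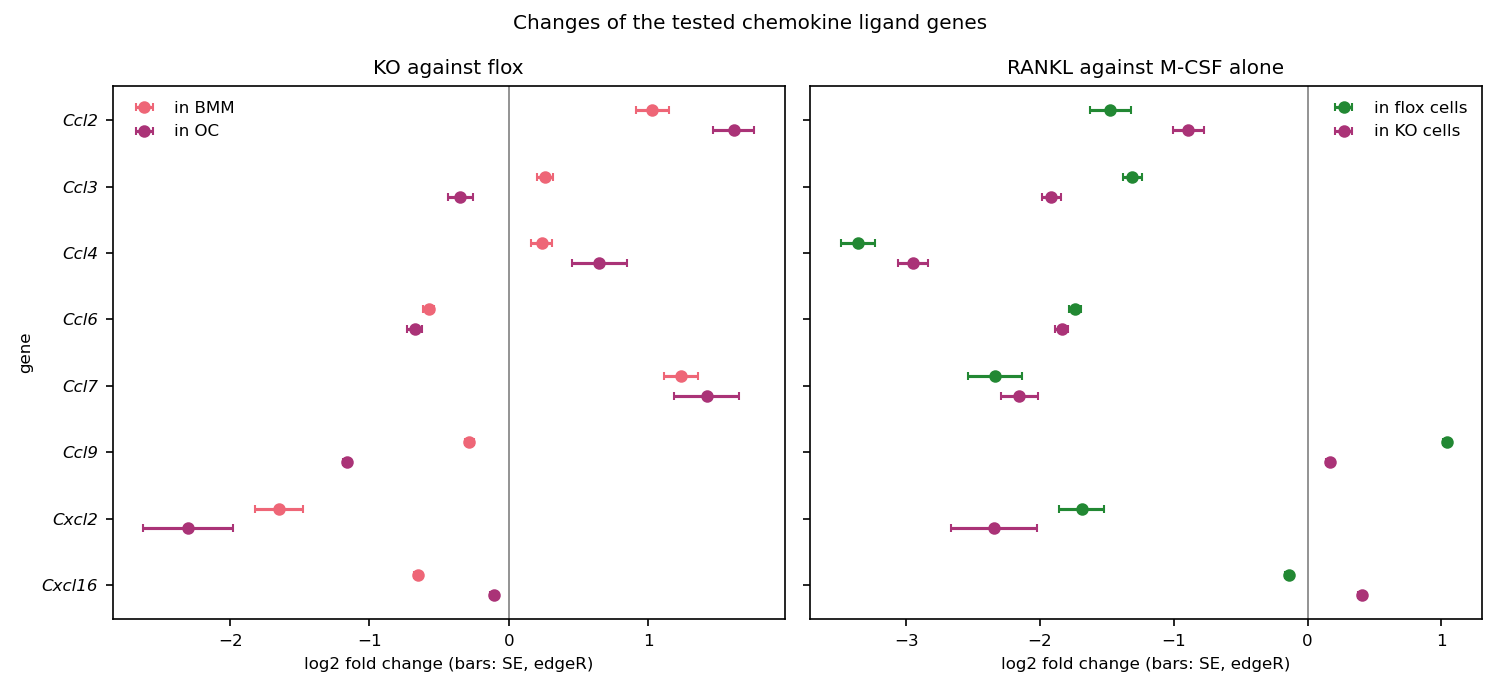
Points are log2 fold changes (x axis) of the 8 tested genes (y axis) with bars of 1 SE, on the left for KO against flox in BMM and OC and on the right for RANKL against MCSF alone in flox and KO cells. Ccl2 and Ccl7 lie above 0 in the left panel and Cxcl2 at -1.65 and -2.30; in the right panel Ccl4 has the largest falls, Ccl9 is at 1.04 and 0.17, and Cxcl16 in flox cells, at -0.14, turns to 0.03 with scaling to library size alone.

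Counted over the list, 4 of the 8 tested genes were higher in KO_BMM, namely Ccl2, Ccl3, Ccl4 and Ccl7, and 4 were lower, namely Ccl6, Ccl9, Cxcl2 and Cxcl16. Of all tested genes, 19.3% were called higher and 20.6% lower in this comparison. In OC, 3 were higher, Ccl2, Ccl4 and Ccl7, and the other 5 were lower, against 21.4% and 19.9% of all tested genes. The median log2 fold change of the 8 was -0.024 in BMM and -0.23 in OC, and that of all tested genes was 0.00081 and 0.0060. A change of at least 2-fold was called for Ccl2, Ccl7 and Cxcl2 in BMM and for these and Ccl9 in OC, against 4.21% and 4.22% of all tested genes. Groups did not overlap for any of the 8 genes in either comparison, which held for 46.6% of all tested genes in BMM and 51.3% in OC. Of all calls in BMM, 48.3% were higher in KO (2513 higher, 2690 lower), and 59.9% with scaling to library size alone (3330 higher, 2228 lower).

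With RANKL, 1 of the 8 was higher in flox cells and 7 were lower, 6 of them lower with scaling to library size alone, where Cxcl16 did not pass. Of all tested genes, 37.0% were called higher and 37.8% lower. In KO cells 2 were higher, Ccl9 and Cxcl16, and 6 were lower, against 35.5% and 35.0%. The medians of the 8 were -1.58 in flox cells and -1.88 in KO cells, and those of all tested genes were -0.0036 and 0.0017. Changes of at least 2-fold were called for Ccl9 upward and 6 genes downward in flox cells, against 17.4% of all tested genes in either direction, and for 5 genes downward in KO cells, against 13.9%. No group overlap was seen for the 8 genes, which held for 75.2% of all tested genes in flox cells and 73.4% in KO cells. The share of all calls that were higher with RANKL went from 49.5% to 62.8% in flox cells and from 50.4% to 63.5% in KO cells with scaling to library size alone, which moved the median of all genes by 0.16 and 0.14 on the log2 scale.

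The RANKL effect differed between genotypes for 3 of the 8 genes, with Cxcl16 higher and Ccl3 and Ccl9 lower in KO cells relative to flox cells, against 12.3% of all tested genes called higher and 9.54% lower. None of the 8 reached a 2-fold difference, against 1.06% of all tested genes. Higher calls were 56.4% of all calls for this difference and 43.3% with scaling to library size alone. The comparisons share groups, so their fold changes are not independent of each other.

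Levels were compared between genes per kilobase of exon. By full exon length, Ccl9 had the highest mean in 3 groups, at 108 CPM per kilobase in flox_BMM, 222 in flox_OC and 99.4 in KO_OC. The length of Cxcl16 includes the 18.3% that overlap Zmynd15, where reads cannot be told apart. Its order against Ccl9 in flox_BMM and KO_OC depends on whether that stretch is included. In KO_BMM the highest was Ccl2, at 133 CPM per kilobase, before Ccl9 at 88.6 and Cxcl16 at 65.4. In flox_BMM Ccl9 was followed by Cxcl16 at 103, Ccl2 at 65.0 and Ccl6 at 64.5, and the last pair overlapped between libraries. In flox_OC the gap after Ccl9 was wide, with Cxcl16 at 93.3 and Ccl2 at 23.4 CPM per kilobase. In KO_OC the order was Ccl9, Cxcl16 at 86.7 and Ccl2 at 71.4. Ccl6 and Ccl3 overlapped in KO_BMM at 43.3 and 40.6, and Ccl22 and Cxcl1 were the lowest pair in every group, at or under 0.522 CPM per kilobase.

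**Figure D3:**
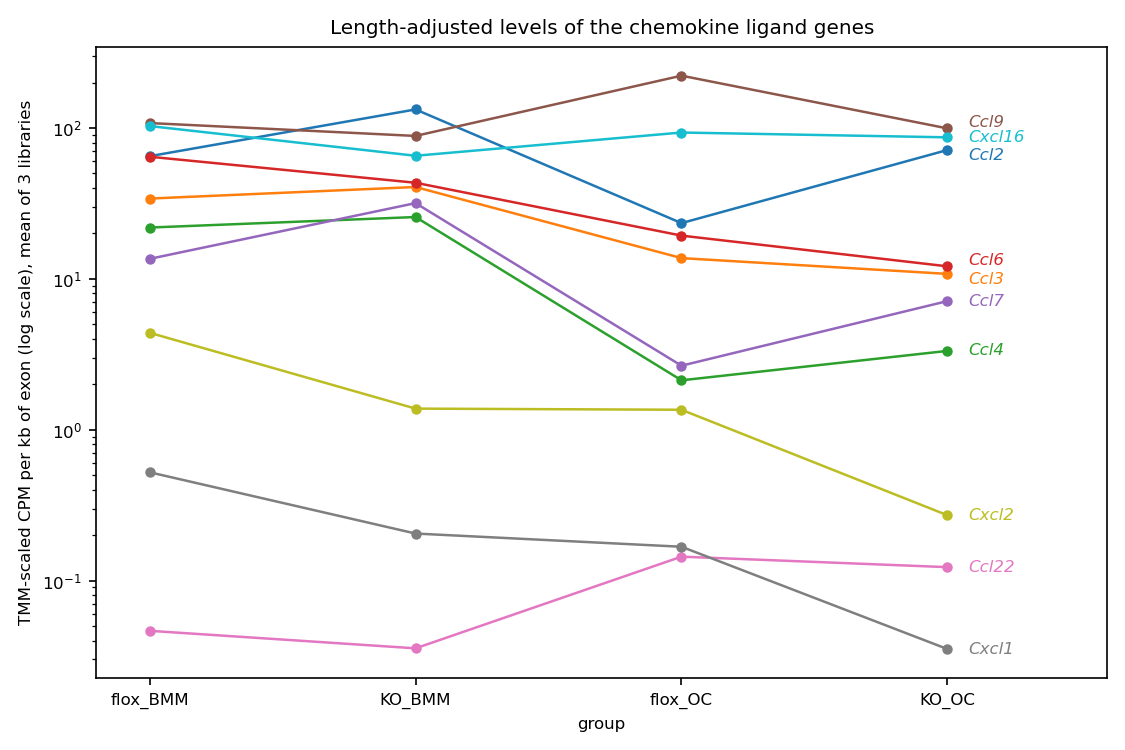
Lines join the mean level of each of the 10 genes in the 4 groups (x axis) in TMM-scaled CPM per kilobase of exon (y axis, log scale, mean of 3 libraries). By full exon length, Ccl9 is on top except in KO_BMM, where Ccl2 is at 133, and Cxcl1 and Ccl22 are the lowest in every group. The order of Ccl9 and Cxcl16 in flox_BMM and KO_OC depends on whether the Cxcl16 stretch that overlaps Zmynd15 is included.

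The 10 genes together summed to 865 to 912 CPM in flox_BMM, 765 to 779 in KO_BMM, 1016 to 1047 in flox_OC and 676 to 699 in KO_OC. With TMM scaling the groups did not overlap, with flox_OC the highest and KO_OC the lowest. Ccl9 and Cxcl16 together made up 72.2% of that sum in flox_BMM, 60.6% in KO_BMM, 92.5% in flox_OC and 82.5% in KO_OC. Besides Ccl9, only Ccl22 had a higher mean in flox_OC than in flox_BMM, and with scaling to library size alone Cxcl16 also did (0.03 in log2).

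Among the listed genes, Ccl3 and Ccl4 had the most alike profiles over the 12 libraries (Pearson r = 0.96 on log2 CPM), before Ccl2 and Ccl7 (r = 0.939) and Ccl3 and Ccl6 (r = 0.937). Ccl2 and Ccl9 ran opposite to each other (r = -0.942). For likeness to other genes, genes without a symbol, predicted and clone-named gene models, and genes with mt-, Rpl or Rps symbols were left out. Among the remaining tested genes, the most alike were Cd81 for Ccl2 (r = 0.99), Hlx for Ccl3 (r = 0.994), Stard8 for Ccl4 (r = 0.998) and Apoe for Ccl6 (r = 0.997). They were Lamp1 for Ccl7 (r = 0.99), Lpxn for Ccl9 (r = 0.993), Erp29 for Cxcl2 (r = 0.99) and Apobr for Cxcl16 (r = 0.981). The next in line were Steap3, Pgpep1, Rilp, Otulinl, Acadl, Rassf8, Zfp36 and Dip2c in the same order. The 12 points are 3 libraries in each of 4 groups, so these values follow the group means and are given as a description.

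More of the tested other chemokine ligands were lower than higher in KO cells. Of 28 further ligand genes 12 were tested, of which 1 was higher in KO_BMM and 7 were lower, with 4 not passing, and in OC none was higher and 6 were lower. Among all tested genes, 19.3% were called higher and 20.6% lower in BMM, and 21.4% and 19.9% in OC. The median log2 fold change of the 12 ligands was -0.98 in BMM and -0.59 in OC. With a filter of at least 1 CPM in 3 libraries, 4 were lower in KO_BMM. Pf4, platelet factor 4, had means of 374 CPM in flox_BMM, 49.9 in KO_BMM, 137 in flox_OC and 15.5 in KO_OC, and fell by a log2 fold change of -2.90 in BMM (SE 0.05, edgeR adjusted p = 2.31e-19) and -3.15 in OC (SE 0.07, edgeR adjusted p = 4.22e-18). Ppbp, a platelet basic protein gene next to Pf4, was lower in KO_BMM (-3.27, SE 0.47, edgeR adjusted p = 1.06e-07). Its means were 1.03 CPM in flox_BMM and 0.101 in KO_BMM, where it rests on few reads. Cxcl12, a stromal ligand of Cxcr4, was lower in KO_BMM (edgeR adjusted p = 5.02e-13) and in KO_OC (-2.74, SE 0.25, edgeR adjusted p = 5.13e-13). Stromal and osteoblast markers summed to 178 to 195 CPM in flox_BMM, 56.6 to 63.3 in KO_BMM, 150 to 154 in flox_OC and 46.3 to 55.8 in KO_OC, with all 7 tested genes of that list called lower in KO cells under each medium and Bglap at 0. Megakaryocyte markers summed to 10.2 to 12.2 CPM in flox_BMM, 6.90 to 9.06 in KO_BMM, 4.78 to 5.29 in flox_OC and 4.10 to 4.80 in KO_OC, with Gp9 at 0 in both KO groups. The part of those cells in these ligands was not tested.

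With RANKL, 3 of these 12 ligands were higher and 5 lower in flox cells, and 2 were higher and 4 lower in KO cells, with medians of -0.16 and -0.27. Among all tested genes, 37.0% were called higher and 37.8% lower in flox cells, and 35.5% and 35.0% in KO cells. In KO cells 4 of the 12 ligands were higher without replicate 3 of KO_BMM or with scaling to library size alone. Cxcl10, an interferon-induced ligand of Cxcr3, had means of 5.93 CPM in flox_BMM, 2.19 in KO_BMM, 49.6 in flox_OC and 41.3 in KO_OC. It rose with RANKL by 3.06 in flox cells (SE 0.07, edgeR adjusted p = 1.03e-36) and by 4.23 in KO cells (SE 0.09, edgeR adjusted p = 2.71e-38), and the effects differed by 1.17 (SE 0.15, edgeR adjusted p = 3.8e-08). Cxcl11, of the same receptor, had means of 0.038 CPM in flox_BMM, 0.064 in KO_BMM, 2.77 in flox_OC and 1.32 in KO_OC. It passed the filter on low counts only through the RANKL groups, so its RANKL calls, counted above, were favoured by that filter. Those calls are given as a description, and the levels with MCSF alone rest on few reads. Cxcl11 was lower in KO_OC than in flox_OC (-1.06, SE 0.19, edgeR adjusted p = 1.31e-05). Cxcl14, a CXC ligand of macrophages and epithelia, fell with RANKL in flox cells (-1.59, SE 0.04, edgeR adjusted p = 9.3e-24) and less in KO cells (difference 0.56, SE 0.06, edgeR adjusted p = 2.61e-08). Ccl12, a ligand of Ccr2 in mice, fell with RANKL in KO cells (-1.97, SE 0.27, edgeR adjusted p = 9.34e-09). It also fell in flox cells (-1.30, SE 0.345, edgeR adjusted p = 7.59e-04), and the difference of the effects did not pass (edgeR adjusted p = 0.355).

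**Figure D4:**
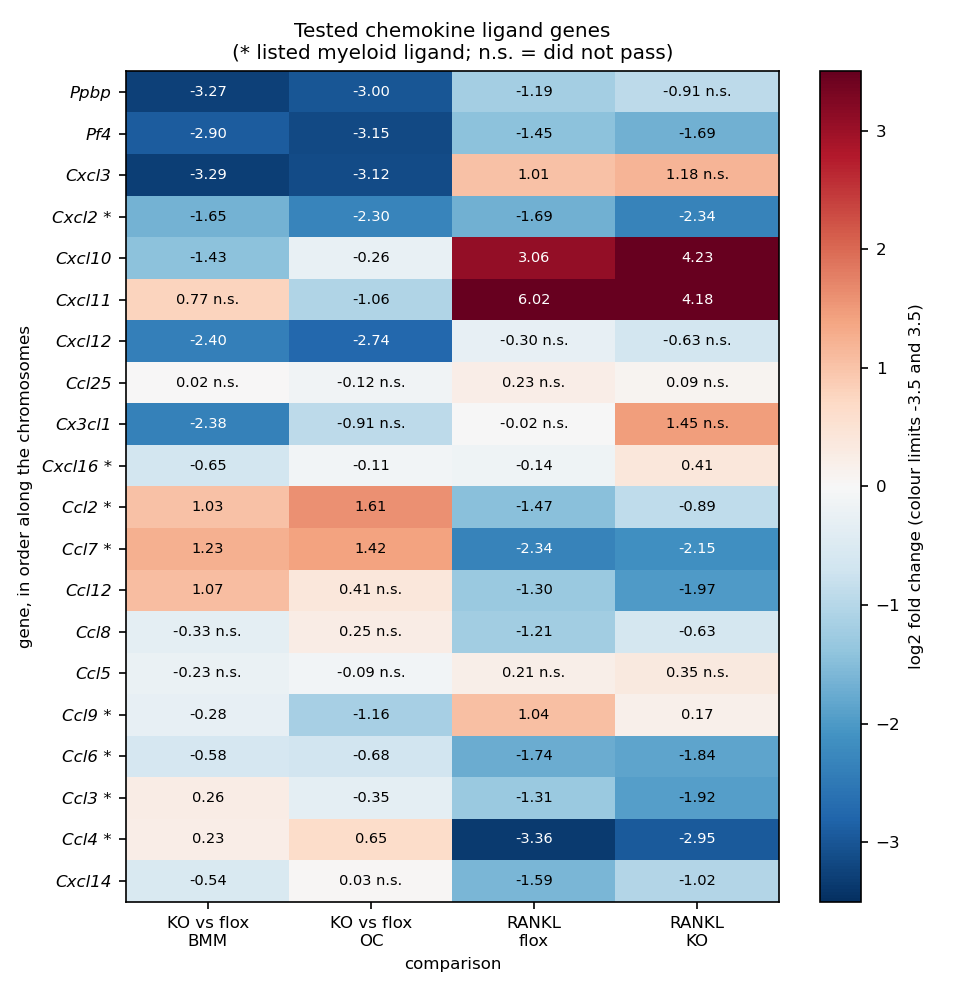
Cells give the log2 fold change, by colour and number, of the 20 tested chemokine ligand genes (rows, in order along the chromosomes; a star marks the listed genes) in the 4 comparisons (columns), and n.s. marks values that did not pass. Ccl2, Ccl7 and Ccl12 are the run of red cells in KO_BMM, Ppbp and Pf4 are at -3.27 and -2.90 there, and the Cxcl16 value of -0.14 with RANKL in flox cells turns to 0.03 with scaling to library size alone.

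Of 11 receptor genes, a list that also holds the chemerin receptor gene Ccrl2, 5 were tested. Under each medium 1 was higher and 3 were lower in KO cells, and Ccrl2 did not pass. The medians, with Ccrl2 included, were -0.305 in BMM and -0.098 in OC. Among all tested genes, 19.3% were called higher and 20.6% lower in BMM, and 21.4% and 19.9% in OC. Ccr2, the receptor of Ccl2 and Ccl7, had means of 78.4 CPM in flox_BMM, 115 in KO_BMM, 13.9 in flox_OC and 31.4 in KO_OC. It was higher in KO_BMM (0.55, SE 0.07, edgeR adjusted p = 1.32e-05) and in KO_OC (1.18, SE 0.11, edgeR adjusted p = 7.83e-07), the same directions as Ccl2 and Ccl7. Ccl12, a further ligand of Ccr2, was higher in KO_BMM (1.07, SE 0.24, edgeR adjusted p = 2.29e-04) and did not pass in OC (0.41, SE 0.39, edgeR adjusted p = 0.443). Ccr1, the receptor of Ccl3, Ccl6 and Ccl9, had means of 22.5 CPM in flox_BMM, 15.3 in KO_BMM, 26.4 in flox_OC and 7.78 in KO_OC. It was lower in KO_BMM (-0.56, SE 0.08, edgeR adjusted p = 5.5e-08) and in KO_OC (-1.77, SE 0.08, edgeR adjusted p = 1.35e-21), and its RANKL effect was lower in KO cells by -1.20 (SE 0.12, edgeR adjusted p = 5.54e-11). Ccr3, known from eosinophils, was lower in KO_BMM (-1.06, SE 0.09, edgeR adjusted p = 3.87e-14) and in KO_OC (-1.42, SE 0.13, edgeR adjusted p = 8.5e-13).

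With RANKL, 1 receptor rose and 4 fell in flox cells, and all 5 fell in KO cells, with medians of -1.64 and -1.51. Among all tested genes, 37.0% were called higher and 37.8% lower in flox cells, and 35.5% and 35.0% in KO cells. Ccr2 fell in flox cells (edgeR adjusted p = 5.98e-12) and in KO cells (-1.87, SE 0.08, edgeR adjusted p = 2.01e-11). Ccrl2, a receptor that binds chemerin and does not signal, fell in flox cells (-1.77, SE 0.18, edgeR adjusted p = 3.97e-11) and in KO cells (-1.76, SE 0.18, edgeR adjusted p = 6.56e-11).

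Of 14 genes of NF-kB signalling and transcript decay, which are known to set the amounts of many chemokine transcripts, all were tested. In KO_BMM 13 were lower and none was higher, and in KO_OC 9 were lower and none was higher. Among all tested genes, 20.6% were called lower and 19.3% higher in BMM, and 19.9% and 21.4% in OC. The list medians were -0.40 in BMM and -0.18 in OC, beside 0.00081 and 0.0060 over all tested genes. Relb, an NF-kB subunit of the alternative pathway, had means of 32.4 CPM in flox_BMM, 17.8 in KO_BMM, 71.9 in flox_OC and 71.5 in KO_OC. It was lower in KO_BMM (-0.86, SE 0.06, edgeR adjusted p = 1.2e-16) and did not pass in OC (-0.0069, SE 0.04, edgeR adjusted p = 0.914). Its RANKL effect was higher in KO cells by 0.85 (SE 0.07, edgeR adjusted p = 6.03e-13). Tnfaip3, which encodes the inhibitor A20, was lower in KO_BMM (-0.77, SE 0.05, edgeR adjusted p = 7.17e-17) and in KO_OC (-0.81, SE 0.05, edgeR adjusted p = 1.02e-19). Nfkbiz, which encodes a nuclear IkB protein, was lower in KO_BMM (-1.11, SE 0.09, edgeR adjusted p = 5.02e-15), and its RANKL effect was higher in KO cells by 0.99 (SE 0.13, edgeR adjusted p = 3.41e-08).

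With RANKL, 8 of these 14 were higher and 5 lower in flox cells, and 9 were higher and 3 lower in KO cells, with medians of 0.19 and 0.24. Among all tested genes, 37.0% were called higher and 37.8% lower in flox cells, and 35.5% and 35.0% in KO cells. Nfkb2, a subunit gene of the alternative pathway that RANKL is known to use, rose by 2.34 in flox cells (SE 0.03, edgeR adjusted p = 7.66e-47) and by 2.79 in KO cells (SE 0.03, edgeR adjusted p = 6.87e-49). Nfkbia, the gene of an NF-kB inhibitor, rose by 1.70 in flox cells (SE 0.03, edgeR adjusted p = 8.98e-42) and by 1.83 in KO cells (SE 0.03, edgeR adjusted p = 3.29e-42). Zfp36l1, of a family of proteins that bind AU-rich transcripts and promote their decay, fell in flox cells (-2.16, SE 0.06, edgeR adjusted p = 2.76e-35) and in KO cells (-2.06, SE 0.06, edgeR adjusted p = 5.49e-32). Zfp36l1 and Dusp1, a phosphatase gene of MAP kinase control, were lower in KO_OC by -0.45 (SE 0.08, edgeR adjusted p = 5.16e-06) and -0.42 (SE 0.04, edgeR adjusted p = 1.31e-12).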

How the data were processed

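Poly(A) RNA of 12 libraries was analysed from the deposited raw counts, 1 table per library. The submitters' processing notes name STAR 2.0.4b and the build GRCm38, and the counts were made with featureCounts 1.4.5-p1 over exons of Ensembl release 76 with strand setting 0, per the file headers. Of the 41388 genes, 40254 had a symbol in the reference tables, and those without held 0.136% of reads; all rows were genes and were kept.

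Genes were filtered with edgeR 4.0.16 (filterByExpr, minimum count 10), scaled by TMM and tested with its quasi-likelihood test in R 4.3.3 with 4 group means over all 12 libraries. Alternatives were other scalings, other filters, a demand for 2-fold, the replicate number as a block, fits on the compared groups, each library left out, and DESeq2 1.42.0. SEs were derived from the F statistic. Likeness used Pearson r on log2(CPM + 0.5). The fit was tested on data simulated with changes in KO_BMM alone, for KO against flox in BMM only. The RANKL comparisons and the difference were not simulated. No 2 libraries agreed within sampling noise.

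All 10 listed genes are described. From each further list, up to 3 called genes with the largest change and a group mean of at least 1 CPM were named per comparison, and 1 of them is not reported here. The genes and lists were chosen with earlier results of these data known. Promoters are from RefSeq (GRCm38.p6), where 6 of the 10 genes were found.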

Additional observations from a re-analysis of the deposited data

Results flagged for a closer look

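Among the 8 tested genes, 3 had a RANKL effect that differed between genotypes by a test of the difference itself. For Ccl9 the effect in KO cells minus that in flox cells was -0.88 on the log2 scale, with a RANKL effect of 1.04 in flox cells and 0.17 in KO cells. For Ccl3 the difference was -0.61, with a fall in both genotypes. For Cxcl16 it was 0.55, with 0.41 in KO cells and -0.14 in flox cells, the latter 0.03 with scaling to library size alone. Each of these differences kept its direction and passed the threshold in every alternative but the demand for a 2-fold change.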

How the results depend on the processing

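Of 600 alternative fold changes of the 8 tested genes, 577 kept their direction and their side of the threshold. Without the demand for a 2-fold change, 7 of 560 did not. Cxcl16 with RANKL in flox cells turned to 0.026 with scaling to library size alone, which moved the median of all tested genes from -0.0036 to 0.16. The Ccl7 difference of RANKL effects, which did not pass, ran from -0.10 without replicate 1 of flox_BMM to 0.30 without replicate 3. The other 5 concern Ccl4 in BMM and the Ccl2 difference and stand beside those results. Of 40 mean levels of the listed genes in the groups, 18 moved by at least their SD with scaling to library size alone. With no filter on low counts, 2 listed genes were higher with RANKL in flox cells, since Ccl22 was then tested. By DESeq2, 2 listed genes had a higher RANKL effect in KO cells, and leaving out 1 library gave 1 to 2. A demand for 2-fold left 116 genes higher and 432 lower in KO_BMM (2 and 1 listed). In KO_OC it left 195 and 355, with 2 listed genes lower and Ccl2 and Ccl7 higher. With RANKL it left 895 and 1372 in flox cells and 796 and 1015 in KO cells (0 listed higher in KO cells). For the difference it left 104 and 34 (0 and 0 listed). Same-numbered libraries did not deviate together (r from -0.035 to 0.040; 3 of 12 correlated best with their own number), and the replicate block gave 2486 genes higher and 2664 lower in KO_BMM, 2766 and 2567 in KO_OC, and 1582 and 1201 for the difference, and the same counts of listed genes as without the block. Levels of Cxcl1 and Ccl22, of Cxcl2 in KO_OC, of Ppbp in KO_BMM and of Cxcl11 in both BMM groups rest on few reads.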
